A study of Mus musculus with 6 samples.

Results

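The contactins and the contactin-associated proteins were examined in nuclei of the mouse prelimbic (PL) cortex. The set was defined by gene symbol, with no threshold on a measured value, and holds 10 of the 32285 genes in the deposited matrices. It covers the contactins Cntn1, Cntn3, Cntn4, Cntn5 and Cntn6 and the contactin-associated genes Cntnap2, Cntnap4, Cntnap5a, Cntnap5b and Cntnap5c. All 10 symbols were found once in each matrix.

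Single nucleus RNA-Seq (10x 3′ chemistry) was performed on 6 libraries of PL from C57BL/6 males, and each library was a pool of 3 males that were not brothers. Run males were raised until weaning by a dam that had a running wheel in the cage after birth, and Sed males by a dam in a standard cage. From weaning the males lived in a group (GH) or alone (SI). Dataset 1 held 1 RunGH and 1 SedGH library from males that had been through the tube test, a test of social dominance, and had ranked at the top or bottom of their own group. Dataset 2 held 1 library each of RunGH, SedGH, RunSI and SedSI from a separate cohort that had taken no behavioural test. The methods of the study place the dissection at about 4 months of age, whereas the sample labels give postnatal day 21, the day of weaning. Mice pooled in a library cannot be told apart, so each condition was measured once per dataset.

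Contactins are adhesion proteins of the immunoglobulin superfamily that are held on the neuronal surface by a lipid anchor. Contactin-associated proteins (Caspr proteins) cross the membrane, resemble neurexins, and pair with contactins beside the node of Ranvier and at synapses. Cntn1 serves the axon near the node and the maturation of oligodendrocytes, Cntn4 takes part in axon guidance, and Cntn5 and Cntn6 act in synapse formation of sensory circuits. Cntnap2 (Caspr2) clusters potassium channels beside the node and Cntnap4 (Caspr4) has been linked to transmitter release from interneurons. The Cntnap5 genes encode Caspr5 proteins, whose roles are little known.

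All 10 members are long genes on the mm10 build, from 290.803 kb for Cntn1 on chromosome 15 to 2244.86 kb for Cntnap2 on chromosome 6, which ranked 4 among all genes by length. Cntn3, Cntn4 and Cntn6 lie on chromosome 6 as well, Cntn5 on chromosome 9, Cntnap4 on chromosome 8, Cntnap5a and Cntnap5b on chromosome 1 and Cntnap5c on chromosome 17. The Cntnap5 genes are near copies of each other. Their coding sequences were 89.7 to 90.3% identical in pairs, and their transcripts shared uninterrupted runs of 68 to 91 bases. By comparison, the contactins were 53 to 66.4% identical in pairs, with shared runs of 14 to 22 bases.

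The last 60 coding bases of the Cntnap5 genes are shown as an example of where the copies differ. Each window lies in exon 24 of 24 on the plus strand of mm10 (GENCODE M21), is coding throughout and ends with the stop codon. Capitals mark the 11 positions that are not the same in all 3 genes. Cntnap5a and Cntnap5c differ at each of these, so this stretch is less alike than their whole coding sequences (90.3% identical).
Cntnap5a, chr1:116580615-116580674: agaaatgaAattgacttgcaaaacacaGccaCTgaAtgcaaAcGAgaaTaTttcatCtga
Cntnap5b, chr1:100484642-100484701: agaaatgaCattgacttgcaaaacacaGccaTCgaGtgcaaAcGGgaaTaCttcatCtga
Cntnap5c, chr17:58410283-58410342: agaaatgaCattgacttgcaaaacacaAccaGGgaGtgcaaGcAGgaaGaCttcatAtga
The transcripts share runs of 68 to 91 bases, and reads from such runs could be assigned to the wrong copy or dropped. Introns were counted too, and how alike the introns are was not checked here. The counts of Cntnap5a, Cntnap5b and Cntnap5c are uncertain in that respect.

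After filtering, 42595 nuclei remained, between 4997 and 9936 per library, and 38266 of them fell into 15 cell classes. The classes were built without the members and 21 related genes, and their names stand for marker-based likeness (PV-like and so on): 7 layer classes of pyramidal neurons, the interneuron classes PV, SST, VIP and NPY/Lamp5, and 4 glial classes. Median UMIs per nucleus ranged from 1637 in SedGH of dataset 2 to 6250 in SedGH of dataset 1. In dataset 1 the droplets without a nucleus held 19.9 and 19.97% of the UMIs of a median nucleus, against 4.39 to 7.68% in dataset 2. Pairs of libraries shared between 5 and 22 barcodes. The datasets also differed in behavioural testing and cohort, which cannot be told apart from these technical differences. Levels are given as CPM, the UMIs of a gene summed over all nuclei of a class in a library and scaled to the same total in every sum. All 10 members passed the low-count filter in every class tested over the 6 libraries.

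**Figure D1:**
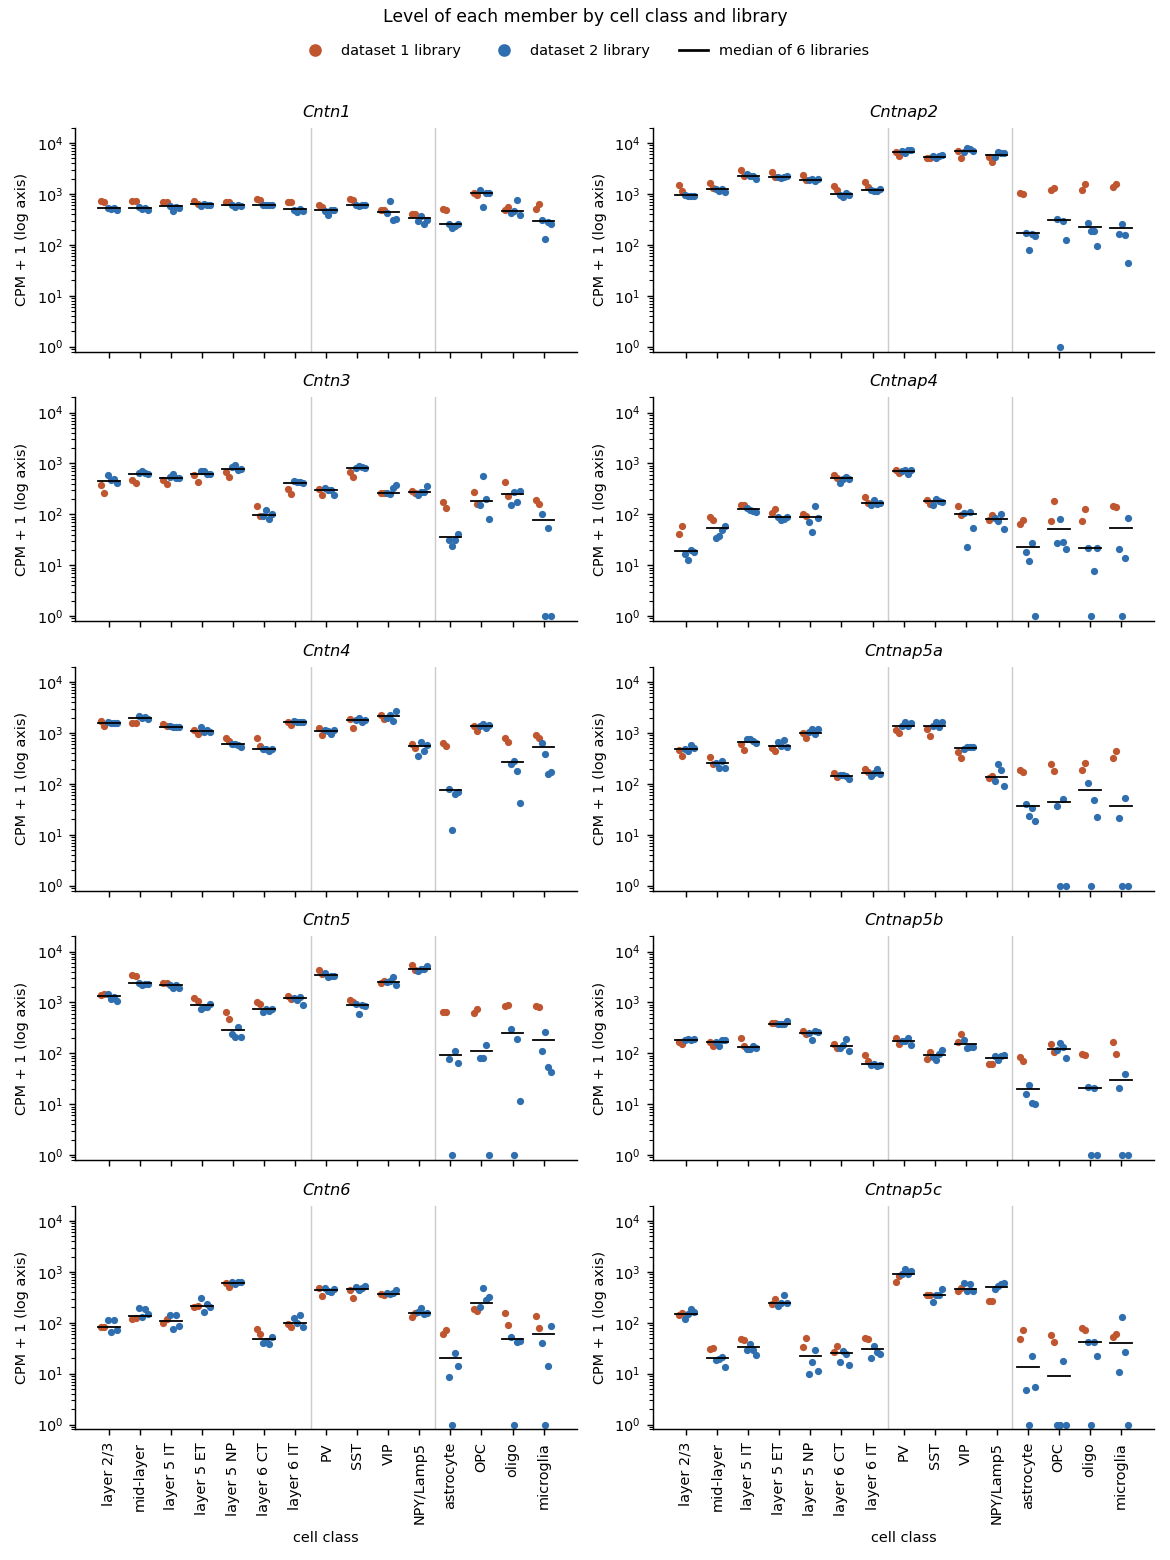
CPM + 1 (log axis) of each member in 7 layer classes, 4 interneuron classes and 4 glial classes, with 1 point per library (orange for dataset 1, blue for dataset 2) and a line at the median of 6 libraries. Cntnap5c was highest in PV in all 6 libraries, Cntnap4 stood high in PV and layer 6 CT, and the glial values of most members lay higher in dataset 1.

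The first question was in which cells each member was found. Most members were high in a few classes and low in the others, and the classes differed from member to member. Over the neuronal classes, the highest median was 1.85 times the lowest for Cntn1, 16.0 times for Cntn5, 39.9 times for Cntnap4 and 45.9 times for Cntnap5c. Cntn1 was thus the most even member across neurons and Cntnap5c the most uneven. In a comparison of the 4 interneuron classes with the mean of the layer classes, 6 members were higher, 3 were lower and Cntn4 was not called (edgeR's quasi-likelihood test, Benjamini-Hochberg adjusted p at most 0.05). Of all 14738 genes tested, 44.7% were called in that comparison. The median log2 fold change was 0.53 over the members and 0.00 over all genes. The fit held 1 sum per class and library with at least 20 nuclei, and library was a term in it. Its p-values measure the scatter left among these sums of 6 pooled libraries, not the spread between mice. Sums of 1 library come from the same pool of mice. In all class contrasts, pyramidal neurons stand for the mean of the layer classes, each with equal weight.

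Among the contactins, Cntn5 separated the interneuron classes. Its level in NPY/Lamp5 was 5414 CPM in RunGH and 4417 in SedGH of dataset 1, and 4096, 4472, 4539 and 5276 in RunGH, SedGH, RunSI and SedSI of dataset 2. In SST the level was 1101 and 1036 CPM in RunGH and SedGH of dataset 1, and 934.5, 590.9, 874.5 and 863.9 in RunGH, SedGH, RunSI and SedSI of dataset 2. Every NPY/Lamp5 value lay above every SST value, and NPY/Lamp5 was the highest of the 15 classes in all 6 libraries. Against pyramidal neurons Cntn5 was higher in NPY/Lamp5 by 1.88 ± 0.17 (log2, SE, adjusted p = 3.4e-17), in PV by 1.58 ± 0.17 and in VIP by 1.00 ± 0.19. In SST its difference of -0.40 ± 0.20 was not called (edgeR's quasi-likelihood test, adjusted p = 0.12). PV exceeded SST by 1.98 ± 0.26 on the log2 scale (adjusted p = 1.3e-09). In PV the 6 libraries ranged from 3098 to 4428 CPM with a median of 3464. The ranking holds for whole classes only. The PV clusters led by 6330411D24Rik, described below, held 4900 to 6121 CPM and exceeded NPY/Lamp5 in each library. Nor did every PV cluster exceed SST. The PV cluster led by Gm32647 and Antxr2 in dataset 2 held 168.4 to 576.5 CPM, below the SST class in each library. The other PV clusters lay above the SST class in each library.

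Cntn6 was high in SST, PV and VIP and in layer 5 NP, the near-projecting neurons of layer 5. In layer 5 NP it measured 600.9 and 503.3 CPM in RunGH and SedGH of dataset 1 and 637.1, 571, 628.9 and 635.5 in RunGH, SedGH, RunSI and SedSI of dataset 2. These were the highest values of any class in all 6 libraries. Against the other layers Cntn6 was higher there by 2.28 ± 0.10 on the log2 scale (edgeR's quasi-likelihood test, adjusted p = 3.3e-38). In layer 6 CT, the corticothalamic neurons, it ranged from 37.7 to 76.2 CPM and was lower than in the other layers by 1.65 ± 0.13 (log2 fold change -1.65). Against pyramidal neurons, Cntn6 was higher in SST by 1.58 ± 0.10, in PV by 1.52 ± 0.10 and in VIP by 1.22 ± 0.15, while its value in NPY/Lamp5, -0.11 ± 0.17, was not called. The SST clusters, described below, were unlike. The cluster led by Plpp4 and Pcsk6 exceeded layer 5 NP in SedGH of dataset 1 (570.1 CPM) and throughout dataset 2 (681.4 to 867.5 CPM). In RunGH of dataset 1 that cluster lay below layer 5 NP, at 589.7 CPM.

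Cntn3 and Cntn4 followed other patterns. Cntn3 had its highest median in SST, with a lowest, median and highest library of 542.4, 820.3 and 896.2 CPM, and its lowest among neurons in layer 6 CT, with 81.3, 96.1 and 144.5 CPM. Layer 5 NP, from 540.6 to 920.5 CPM, overlapped SST, which was the highest class in 3 of 6 libraries. Cntn3 was higher in SST than in pyramidal neurons by 0.76 ± 0.11 and lower in PV, VIP and NPY/Lamp5 (log2 fold changes of -0.64, -0.72 and -0.79). Cntn4 had its highest median in VIP, between 1736 and 2659 CPM, and was lower in NPY/Lamp5, between 348.7 and 678.8 CPM. Its contrast with pyramidal neurons was 0.65 ± 0.17 in VIP, 0.51 ± 0.16 in SST and -1.37 ± 0.21 in NPY/Lamp5, and it was not called in PV. The SST call was lost without any 1 of the 4 libraries of dataset 2 (0.41 to 0.45). Within the layers Cntn4 had its highest median in the mid-layer class, between 1566 and 2121 CPM, although in RunGH of dataset 1 layer 2/3 held more (1708 against 1597 CPM). Against the other layers it was lower in layer 5 NP and layer 6 CT (-1.18 ± 0.19 and -1.26 ± 0.19).

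Cntn1 was nearly flat across neurons. Its medians ran from 336.1 CPM in NPY/Lamp5 to 623 CPM in layer 5 ET, the extratelencephalic neurons of layer 5, and no layer contrast of Cntn1 was called. It was lower in NPY/Lamp5, VIP and PV than in pyramidal neurons (log2 fold changes of -1.06, -0.70 and -0.37). Its highest median, 1046 CPM, lay outside the neurons, in oligodendrocyte precursors, where it was the highest class in 5 of 6 libraries.

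**Figure D2:**
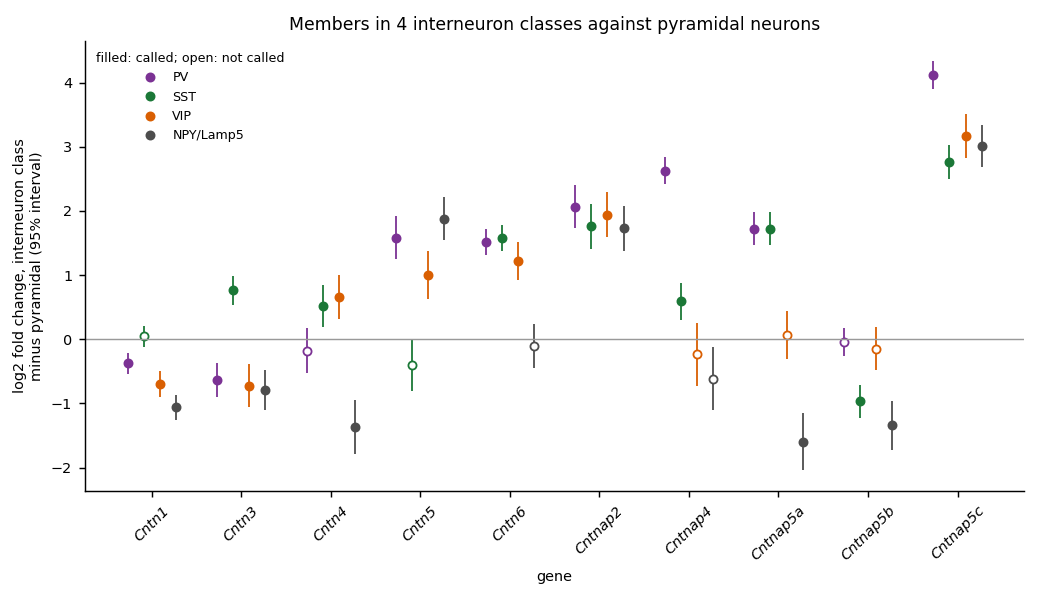
Log2 fold change of each member in PV, SST, VIP and NPY/Lamp5 against the mean of the layer classes, with 95% intervals (filled points called, open points not called). Cntnap2 and Cntnap5c lay above 0 in all 4 classes, while Cntnap5a was high in PV and SST and low in NPY/Lamp5.

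Among the contactin-associated genes, Cntnap2 and Cntnap5c were higher in every interneuron class. Cntnap2 measured 5487 to 7395 CPM in PV (median 6840), 5048 to 7875 in VIP (median 6988), 4225 to 6676 in NPY/Lamp5 (median 5904) and 5037 to 5859 in SST (median 5357). In the layer classes the libraries ranged from 855.3 CPM in layer 6 CT to 3000 CPM in layer 5 IT, the intratelencephalic neurons of layer 5. All interneuron values of Cntnap2 therefore lay above all of its layer values, and the ranges of the 4 interneuron classes overlapped. Its log2 fold change against pyramidal neurons was between 1.73 ± 0.18 in NPY/Lamp5 and 2.07 ± 0.17 in PV, and its PV minus SST value, 0.31 ± 0.26, was not called (edgeR's quasi-likelihood test, adjusted p = 0.51).

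Cntnap5c was scarce in most layers and abundant in interneurons. In PV it measured 619.7 and 830.0 CPM in RunGH and SedGH of dataset 1 and 899.3, 1128, 890.2 and 1038 in RunGH, SedGH, RunSI and SedSI of dataset 2, the highest of all classes in every library. Its log2 fold change against the mean of the layer classes was 4.12 ± 0.11 in PV (edgeR's quasi-likelihood test, adjusted p = 2.8e-55), 3.17 ± 0.18 in VIP, 3.01 ± 0.17 in NPY/Lamp5 and 2.76 ± 0.13 in SST. That mean gives scarce and rich layers equal weight. Over all pyramidal nuclei pooled, the median of Cntnap5c was 90.7 CPM, against 894.8 CPM in PV. PV exceeded SST by 1.36 ± 0.17. Among the layers, Cntnap5c was high in layer 5 ET, from 212.0 to 344.7 CPM, and in layer 2/3, from 118.9 to 185.5 CPM, with log2 contrasts of 2.89 ± 0.11 and 1.94 ± 0.12 against the other layers. In the other 5 layer classes its libraries lay between 8.78 and 50.2 CPM, and no value there reached the lowest of layer 2/3.

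Among the named classes, Cntnap4 was high in PV and layer 6 CT. In PV the libraries held 753.4 and 645.3 CPM for RunGH and SedGH in dataset 1 and 711.6, 734.4, 630.7 and 759.3 for RunGH, SedGH, RunSI and SedSI in dataset 2. In layer 6 CT the 6 libraries ranged from 413.9 to 599.4 CPM (median 511.1), below all PV values and above all values of SST, the next class. Cntnap4 was higher in PV than in pyramidal neurons by 2.62 ± 0.11 and than in SST by 2.03 ± 0.18 on the log2 scale. In layer 6 CT it exceeded the other layers by 2.64 ± 0.10 (edgeR's quasi-likelihood test, adjusted p = 6.3e-43), whereas in layer 2/3, at 11.8 to 57.1 CPM, it was lower by -2.29 ± 0.14. The larger layer 2/3 values, 40.7 and 57.1 CPM, were both of dataset 1, where droplets without a nucleus held 156.4 and 224.7 CPM of Cntnap4. Interneuron clusters led by Corin and Pth2r, which were given no class, held Cntnap4 at a like level, 849.6 and 712.2 CPM in RunGH and SedGH of dataset 1 and 790.6, 877.5, 890.7 and 671.8 CPM in RunGH, SedGH, RunSI and SedSI of dataset 2, from 7 to 49 nuclei per library. These clusters were singled out after their values were seen.

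Cntnap5a and Cntnap5b were divided differently among interneurons. Cntnap5a was alike in PV and SST, at 986.1 to 1618 and 876.5 to 1666 CPM, with a PV minus SST value of 0.00 ± 0.19. It was higher than in pyramidal neurons in both (1.72 ± 0.13 in each) and lower in NPY/Lamp5 (-1.60 ± 0.22). Among the layers Cntnap5a was highest in layer 5 NP, at 782.9 to 1213 CPM, and lower in layer 6 CT and layer 6 IT (-1.63 ± 0.17 and -1.34 ± 0.16). Cntnap5b was lower in SST and NPY/Lamp5 than in pyramidal neurons (-0.97 ± 0.13 and -1.34 ± 0.19) and not called in PV and VIP. It was highest in layer 5 ET, where its libraries lay between 375.2 and 434.0 CPM and above those of every other named class. Its contrast against the other layers was 1.47 ± 0.08 (edgeR's quasi-likelihood test, adjusted p = 2e-31). This ranking holds for whole classes only. In dataset 2 the PV cluster led by Eya1 and Agbl1, described below, held 510.3 to 661.9 CPM and exceeded layer 5 ET in each library. So did an interneuron cluster without a class, led by Cadps2 and Col25a1, at 407.2 to 769.2 CPM.

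Counted by class, members higher and lower than in pyramidal neurons numbered 6 and 2 in PV, 7 and 1 in SST, 5 and 2 in VIP, and 3 and 5 in NPY/Lamp5. The shares of all genes called in these contrasts were 45, 35.9, 23.4 and 25.6%. Between PV and SST, 4 members were higher in PV and 3 higher in SST, and 17.6% of all genes were called. Against the other layers, 3 members were higher and 3 lower in layer 2/3 (40.5% of all genes called), 3 and 3 in the mid-layer class (30.2%), 5 and 3 in layer 5 IT (23.3%) and 6 and 0 in layer 5 ET (37.1%). The counts were 4 and 3 in layer 5 NP (31.1% of all genes called), 1 and 8 in layer 6 CT (30.7%) and 2 and 4 in layer 6 IT (20.9%). Layer 5 ET and layer 6 CT thus had nearly 1 direction each. The median over the members was 0.69 in layer 5 ET and -0.90 in layer 6 CT, beside -0.03 and 0.02 over all genes. By edgeR, Cntnap4 alone was higher in layer 6 CT and Cntn1 alone was not called there, whereas DESeq2 called 2 higher and 6 lower. In layer 5 IT DESeq2 called 3 higher and 0 lower.

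By ranges pooled over the 6 libraries, the order of the classes was often unsure. With the 15 classes of a member placed by their median, the ranges of neighbours overlapped in most places. The first and second class were apart for Cntnap4, Cntnap5b and Cntnap5c alone. Such ranges ignore that the classes of a library are paired. NPY/Lamp5 for Cntn5 and layer 5 NP for Cntn6 were highest in all 6 libraries, although their ranges overlapped the next class. The number of the 14 neighbouring pairs that were apart was 0 for Cntn1, Cntn3 and Cntn6, 1 for Cntnap5b, 2 for Cntn4, Cntn5, Cntnap2 and Cntnap4, and 3 for Cntnap5a and Cntnap5c. Within the datasets nearly all directions were the same, but both datasets are part of the fit that made the calls. A shared sign was thus partly set in advance. Of the 128 called member contrasts over the 17 class comparisons, 127 had the same sign in dataset 1 alone and in dataset 2 alone. The exception was Cntnap5b in layer 5 IT. For the interneuron classes together, Cntnap5c differed from pyramidal neurons by 2.58 in dataset 1 and 3.62 in dataset 2, and Cntnap2 by 1.44 and 1.98 (log2). Both contrasts were smaller in dataset 1, which had more RNA in droplets without a nucleus. Over all 6 libraries, the contrast of Cntnap5c was 3.26 as deposited and 3.64 with that RNA subtracted, and that of Cntnap2 was 1.87 and 1.89.

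The share of nuclei with at least 1 UMI was compared at 1000 UMIs per nucleus. Cntnap5c was found in 41.8% of PV nuclei in dataset 1 (159 of 380, exact binomial 95% interval 36.8 to 47%) and in 49.2% in dataset 2 (482 of 979, 46.1 to 52.4%). In microglia, which are not neurons, the shares of Cntnap5c were 8.33% (4 of 48, 2.32 to 20%) and 3.12% (3 of 96, 0.649 to 8.86%). Cntnap4 was found in 45.8 and 46.7% of PV nuclei and in 14.6 and 2.08% of microglia in the respective datasets. Both genes were thus more frequent in PV than in the class used as background in both datasets. Without thinning the PV shares of Cntnap5c were 80.0 and 72.8%. The median UMIs per nucleus of PV were 4790 to 5610 in the libraries of dataset 1 and 1340 to 3360 in dataset 2, and those of microglia 2680 to 3480 and 824 to 2030. The intervals cover counting error only. In layer 2/3, Cntnap4 was found in 4.70% of nuclei in dataset 1, less than in microglia, and in 1.33% in dataset 2, so that these shares cannot be read as expression.

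Within PV and SST the members varied further. The clusters that make up these classes were built without the members, in each dataset apart, and are named here by their leading genes. In PV, Cntn5 measured 5554 and 5118 CPM in RunGH and SedGH of dataset 1 in the cluster led by 6330411D24Rik and Cemip, against 1551 and 1289 CPM in the cluster led by Agbl1 and Gpr149. In dataset 2, the cluster led by 6330411D24Rik held 4900 to 6121 CPM of Cntn5, the cluster led by Eya1 and Agbl1 927.2 to 1737 CPM, and the cluster led by Gm32647 and Antxr2 168.4 to 576.5 CPM. No range of 1 cluster met that of another within a dataset. Cntnap5b went the other way in part. It held 510.3 to 661.9 CPM in the Eya1 and Agbl1 cluster of dataset 2 and 16.8 to 112.1 CPM in the other two. In dataset 1 it held 434.7 and 204.0 CPM in the Agbl1 and Gpr149 cluster, against 103.4 and 115.9 CPM in the other. Cntnap5c, in contrast, was well above its layer 2/3 level in each of these PV clusters, from 511.1 to 1835 CPM over all clusters and libraries.

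In SST, Cntnap2 and Cntn6 differed in opposite directions between clusters. The cluster led by Pard3b and Gxylt2 in dataset 2 held 9614 to 10730 CPM of Cntnap2, against 4012 to 4475 in the cluster led by Lama4 and Unc13c and 2443 to 3978 in the cluster led by Plpp4 and Pcsk6. Cntn6 was 40.3 to 167.6 CPM in the Pard3b and Gxylt2 cluster, 478.5 to 637.8 in the Lama4 and Unc13c cluster and 681.4 to 867.5 in the Plpp4 and Pcsk6 cluster. Dataset 1 had clusters with like leading genes. There the Crybg1 and Pard3b cluster held 10081 and 8261 CPM of Cntnap2 in RunGH and SedGH and 196.4 and 70.0 CPM of Cntn6. The Plpp4 and Pcsk6 cluster of dataset 1 held 2680 and 1669 CPM of Cntnap2 and 589.7 and 570.1 CPM of Cntn6. The Unc13c and Olfm3 cluster lay between them, with 4085 and 4100.2 CPM of Cntnap2 and 474.2 and 365.9 CPM of Cntn6. Cntnap2 and Cntn6 thus had the same order of clusters, high to low and low to high, in both datasets. These are descriptions without a test, and the smallest of these clusters held 29 nuclei in a library.

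The PV class held 3 clusters in dataset 2 and 2 in dataset 1, so that PV levels of the datasets rest on different cluster makeups.

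**Figure D3:**
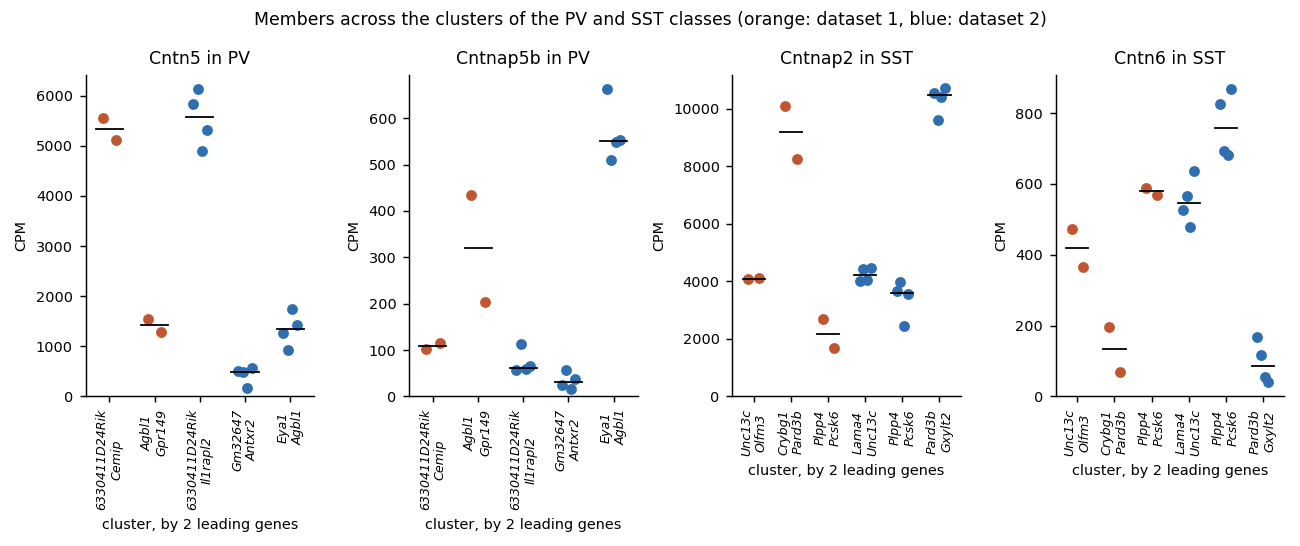
CPM of Cntn5 and Cntnap5b in the PV clusters and of Cntnap2 and Cntn6 in the SST clusters, with 1 point per library and a line at the median (orange for dataset 1, blue for dataset 2). Cntn5 lay between 4900 and 6121 CPM in the 6330411D24Rik clusters and at most at 1737 CPM in the other PV clusters.

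A cluster of 62 interneurons in dataset 2, led by Mctp2 and Unc5b, had too few markers to be given a class. Cntnap5b measured 2069, 2629, 3086 and 3007 CPM in its RunGH, SedGH, RunSI and SedSI nuclei, well above the 434.0 CPM of the highest library in layer 5 ET. It also held 9465, 11185, 10322 and 12815 CPM of Cntnap2 in the same order. Between 12 and 20 nuclei per library stood behind each value, and no test was made. The cluster was singled out after its values were seen.

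In glia the members were mostly low, with Cntn1, Cntn4 and Cntn6 in oligodendrocyte precursors as the main exceptions. Cntn1 in oligodendrocytes was lower than in pyramidal neurons (-0.52 ± 0.11), but its median of 473.1 CPM was like that of some interneurons (451.9 CPM in VIP). The same held for Cntn3 in oligodendrocytes, at 252.8 CPM against 263.9 in VIP. Cntnap5b in the precursors, also called lower than in pyramidal neurons, had a median of 122.5 CPM against 91.06 in SST. Compared with pyramidal neurons, 0 members were higher and 9 lower in astrocytes (60.1% of all genes called), 0 and 9 in oligodendrocytes (30.8%), 0 and 8 in microglia (27%), and 1 and 6 in oligodendrocyte precursors (30.8%). Sums of under 20 nuclei were left out of this fit. The microglia contrast thus rested on Run libraries alone, as the Sed libraries held 9 to 14 microglia. The contrasts of oligodendrocytes and their precursors lacked SedGH of dataset 2, with 11 and 14 nuclei. In the precursors Cntn1 was higher by 0.46 ± 0.10 on the log2 scale (edgeR's quasi-likelihood test, adjusted p = 5e-05), while Cntn4 and Cntn6, at -0.16 ± 0.21 and 0.27 ± 0.21, were not called. With the RNA of empty droplets subtracted, Cntn1 differed in the precursors by 0.38 ± 0.11 (adjusted p = 0.00364), and the medians were 1117 CPM for Cntn1, 1439 for Cntn4 and 261.9 for Cntn6. Cntnap2 in the precursors had a median of 307.9 CPM and lay at up to 1333 CPM in dataset 1, where droplets without a nucleus held 2587 and 2548 CPM of it. Cntn5 in the precursors likewise held 619.5 and 741.4 CPM in dataset 1 and at most 141.9 CPM in dataset 2. The call of Cntn1 was lost without RunGH of dataset 2 (0.27) and in dataset 1 alone (0.17). SedGH of dataset 2 held the lowest value, 561.3 CPM, from 14 nuclei, too few to enter the contrast.

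Among 21 related genes, 10 were higher and 6 lower in the interneuron classes. The Caspr gene Cntnap3 was higher by 3.66 ± 0.26 and Ptprz1, a receptor phosphatase that binds contactins, by 3.41 ± 0.09 (log2). Ptprz1 was higher still in astrocytes and oligodendrocyte precursors, by 6.23 ± 0.09 and 6.19 ± 0.12. The tenascin Tnr, an extracellular ligand of Cntn1, was lower in interneurons (-1.13 ± 0.11) and higher in oligodendrocyte precursors (2.12 ± 0.16). The L1 family gene Nrcam was lower in interneurons (-1.08 ± 0.05). In PV the potassium channel Kcna1, which Cntnap2 helps to place, was higher by 1.23 ± 0.08 and its scaffold Epb41l3 by 1.04 ± 0.07. Cntn2, the axonal partner of Cntnap2, was higher in oligodendrocytes by 2.87 ± 0.21, as was Nfasc by 2.84 ± 0.09 (edgeR's quasi-likelihood test, adjusted p at most 0.05 for each value named).

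The genes outside these lists that followed each member most closely over 85 class by library sums were found by Pearson's r of log2(CPM + 1). They were Tln2 for Cntn1 (0.82), Tenm2 for Cntn3 (0.77), Lrfn5 for Cntn4 (0.88), Mtus2 for Cntn5 (0.88) and Dpp6 for Cntn6 (0.83). For the contactin-associated genes they were Meg3 for Cntnap2 and for Cntnap5a (0.88 and 0.80), Tmem178 for Cntnap4 (0.79), Ptprn2 for Cntnap5b (0.85) and A530058N18Rik for Cntnap5c (0.84). Among the members themselves, the closest pairs were Cntnap2 with Cntn5 and with Cntnap5c (0.80 each), and the most distant was Cntn1 with Cntnap5c (-0.10). Sums of 1 library share its depth and background, so that these are descriptions.

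The second question was whether maternal running changed the members. In the fit over all 6 libraries, with dataset and housing as terms, 0 of 130 member tests over 13 classes were called (edgeR's quasi-likelihood test, Benjamini-Hochberg adjustment, 2 residual degrees of freedom). Of all 144245 gene tests, 0.0464% were called. At an unadjusted p under 0.05 there were 12 member tests (9.23%, against 6.72% of all gene tests), and DESeq2 called 0 as well. Of the 12, Cntnap5a in the mid-layer class had the smallest p, with a Run minus Sed difference of 0.38 ± 0.10 on the log2 scale (edgeR's quasi-likelihood test, adjusted p = 0.466). No member difference passed the threshold in this fit.

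The count depended on dataset 1. Without RunGH of dataset 1 there were 7 member calls and without SedGH of dataset 1 there were 9, each of 130 tests, beside 5.27 and 5.22% of all gene tests, and in both fits the comparison of Run with Sed rests on dataset 2. With dataset 2 alone, a fit added after the data were seen, 8 of 126 member tests were called, 7 higher in Run and 1 lower, beside 5.51% of all 133182 gene tests (1 residual degree of freedom, so that each p leans on the spread shared across genes). The share of member tests called was thus close to that of all genes. Of these 8 calls, 6 were Cntn6 in pyramidal classes, and 1 of these was the pooled sum that contains the layers. In layer 5 IT, Cntn6 measured 144.0 and 141.2 CPM in RunGH and RunSI of dataset 2, against 75.0 and 87.3 in SedGH and SedSI, a log2 difference of 0.69 ± 0.12 (edgeR's quasi-likelihood test, adjusted p = 2.8e-06). In layer 2/3 it measured 110.8 and 113.0 CPM in the Run libraries and 65.9 and 72.4 in the Sed libraries (0.59 ± 0.12, adjusted p = 0.00796). The Run and Sed libraries of dataset 2 did not overlap for Cntn6 in either class. In dataset 1, the level in layer 5 IT was 99.9 CPM in RunGH and 118.5 in SedGH, and in layer 2/3 it was 80.9 and 80.3, so that Run lay below Sed in layer 5 IT and at the same level in layer 2/3. The difference between datasets was called for Cntn6 in layer 5 IT (0.89 ± 0.19, edgeR's quasi-likelihood test, adjusted p = 0.000315) and not in layer 2/3 (0.54 ± 0.21, adjusted p = 0.0997). The other calls for Cntn6 were in the mid-layer class (0.39 ± 0.11), layer 5 ET (0.43 ± 0.12), layer 6 IT (0.50 ± 0.13) and all pyramidal neurons (0.39 ± 0.08). Cntnap5a in the mid-layer class (0.34 ± 0.10) and Cntn3 in layer 6 CT (-0.45 ± 0.12) made up the rest. Cntn6 did not have this direction in every class of dataset 2. In layer 6 CT it measured 39.6 and 37.7 CPM in RunGH and RunSI, below the 42.8 and 52.3 CPM of SedGH and SedSI. Run lay below Sed in both pairs of NPY/Lamp5 too. In layer 5 NP, PV, SST and VIP, Run lay above Sed under group housing and below it under isolation. SedGH of dataset 2, the shallowest library, had the lowest value of Cntn6 in layer 5 IT and in layer 2/3. In the isolated pair Run lay above Sed in these classes as well. Whether depth plays a part was not tested.

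In PV, Cntnap5c was lower in Run than in Sed in each of the 3 pairs of libraries, at 619.7 against 830.0 CPM in dataset 1, 899.3 against 1128 under group housing and 890.2 against 1038 under isolation in dataset 2. The fitted log2 difference was -0.33 ± 0.12 and not called (edgeR's quasi-likelihood test, adjusted p = 0.653). Within single PV clusters, Run lay below Sed in every pair but 1. The exception was the isolated pair in the Eya1 and Agbl1 cluster, at 830.5 CPM in RunSI and 773.7 in SedSI. The PV clusters hold different levels of Cntnap5c, and whether their makeup plays a part was not tested.

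Isolated males were present in dataset 2 alone. Here 0 of 130 member tests were called by edgeR's quasi-likelihood test and 0 by DESeq2, beside 0.00139% of all gene tests. At an unadjusted p under 0.05 there were 9 (6.92%, against 1.99% of all gene tests). The smallest p was that of Cntnap4 in layer 5 NP, with 70.2 and 148.0 CPM in RunGH and RunSI and 43.7 and 82.05 CPM in SedGH and SedSI. Both isolated libraries lay above both group-housed ones, by 1.02 ± 0.22 on the log2 scale (edgeR's quasi-likelihood test, adjusted p = 0.903). For Cntnap5c in SST the difference was 0.46 ± 0.18 and not called.

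The third question was whether the Run minus Sed difference was the same in both datasets. By edgeR it was not for a part of the members. Dataset 1 gave this fit 1 pair of libraries, and the difference in dataset 2 was taken over the group-housed and isolated pairs together. Of 130 member tests 26 were called, 24 with a lower Run minus Sed difference in dataset 2 and 2 with a higher one, beside 4.08% of all 155359 gene tests (edgeR's quasi-likelihood test of the interaction, 1 residual degree of freedom). DESeq2 called 1 of 130, Cntn3 in pyramidal neurons, and 0.398% of all genes. The number of calls thus depended on the tool. The pyramidal sum contains the layers, so that its calls and theirs are not separate. All classes of a library also come from the same pool of mice. By class, the members called lower and higher were 5 and 1 in pyramidal neurons (12.6% of all genes called), 1 and 0 in layer 2/3 (6.07%), 4 and 1 in layer 5 IT (5.15%), 3 and 0 in layer 5 ET (3.33%), 2 and 0 in layer 5 NP (0.407%) and 3 and 0 in layer 6 CT (4.38%). In layer 6 IT they were 2 and 0 (2.93%), in PV 2 and 0 (0.87%) and in SST 2 and 0 (0.737%).

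Cntnap2, Cntn4, Cntn3 and Cntnap5a accounted for 19 of the 24 lower calls, with calls in the pooled pyramidal sum counted beside those in its layers. In pyramidal neurons Cntn3 measured 425.1 CPM in RunGH and 296.6 in SedGH of dataset 1, but 520.4 and 546.9 in RunGH and SedGH and 483.9 and 464.2 in RunSI and SedSI of dataset 2. The difference between datasets was -0.65 ± 0.12 (log2, edgeR's quasi-likelihood test, adjusted p = 7e-06). Cntnap2 in pyramidal neurons measured 1932 and 1486 CPM in RunGH and SedGH of dataset 1 and between 1396 and 1447 in the 4 libraries of dataset 2 (-0.48 ± 0.12). In PV, Cntn4 measured 1271 and 895.0 CPM in RunGH and SedGH of dataset 1 and 1150, 1072, 957.9 and 1159 in RunGH, SedGH, RunSI and SedSI of dataset 2 (-0.72 ± 0.16, edgeR's quasi-likelihood test, adjusted p = 0.0137). With background RNA subtracted, the PV call of Cntn4 was lost at a value of -0.90 (adjusted p = 0.0798), as was that of Cntnap5a at -0.52 (adjusted p = 0.207). For Cntn3 and Cntnap2 in pyramidal neurons and Cntn4 in PV, Run lay above Sed in dataset 1 and the pairs of dataset 2 did not share a clear direction. For Cntnap5a in SST, by contrast, Run lay above Sed in dataset 1 (1171 against 876.5 CPM) and below Sed in both pairs of dataset 2 (1370 against 1655 and 1314 against 1666).

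**Figure D4:**
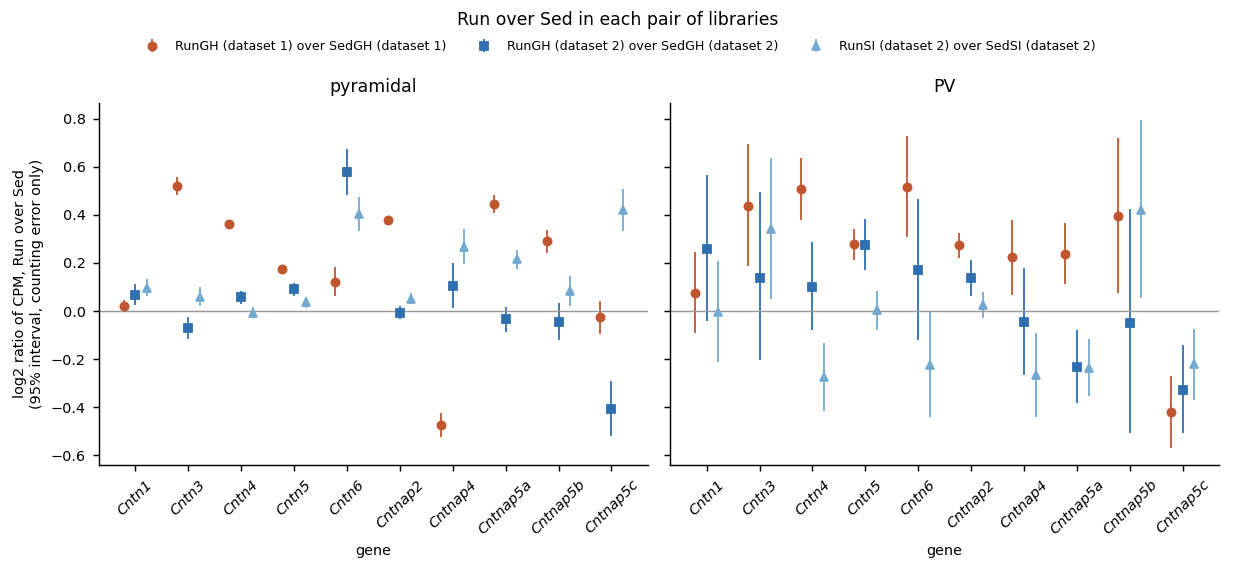
Log2 ratio of CPM of Run over Sed in pyramidal neurons and PV for the group-housed pair of dataset 1 and the group-housed and isolated pairs of dataset 2, with 95% intervals for counting error only. In pyramidal neurons, pooled over layers whose shares differed between libraries, Cntn3, Cntn4 and Cntnap2 were above 0 in dataset 1 and near 0 in dataset 2. In PV Cntnap5c was below 0 in all 3 pairs.

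In pyramidal neurons, long genes as a set leaned in the same direction as the members, though most of them were not called. In pyramidal neurons genes of at least 100 kb took 66.6% of the UMIs in RunGH and 63.8% in SedGH of dataset 1, against 54.1 and 54.9% under group housing and 54.6 and 54.1% under isolation in dataset 2. The median interaction in pyramidal neurons was -0.31 over the members, -0.13 over long genes and 0.01 over all genes. Of the long genes 15.8% were called lower and 4.07% higher, beside 7.80 and 4.79% of all genes. Of the 242 tests of related genes, 5 were called. The part of gene length in the members' result was not tested.

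The makeup of the pyramidal class differed as well. Layer 6 CT held 11.4% of the nuclei with a layer in RunGH and 25.9% in SedGH of dataset 1, against 11.9 to 18.1% in dataset 2. Cntn3 and Cntn4 had their lowest neuronal medians in that layer, 96.1 and 488.2 CPM. In RunGH and SedGH of dataset 1, Cntn4 measured 1559 and 1213 CPM over all pyramidal neurons. Within layers it was 1597 and 1566 CPM in the mid-layer class, 1708 and 1359 in layer 2/3 and 806.2 and 549.1 in layer 6 CT. The part of makeup in the pooled values was not tested. Cntnap4, which is high in layer 6 CT, was 144.2 CPM in RunGH and 200.2 in SedGH over all pyramidal neurons of dataset 1, and its interaction there was called higher (0.54 ± 0.14). Within layer 6 CT the same libraries held 599.4 and 526.6 CPM, so that Run lay above Sed. The one layer with a call, layer 6 IT, had the opposite sign (-0.65 ± 0.19, edgeR's quasi-likelihood test, adjusted p = 0.0259), while layer 2/3 and layer 6 CT, at 0.58 ± 0.27 and -0.32 ± 0.15, were not called. The direction of Cntnap4 in the pooled pyramidal neurons was therefore not that of each layer. Droplets without a nucleus held 156.4 and 224.7 CPM of Cntnap4 in RunGH and SedGH of dataset 1. Cntn3, by contrast, was called lower in layer 6 CT itself (-1.13 ± 0.20), with 144.5 and 91.7 CPM in RunGH and SedGH of dataset 1 and 90.5, 122.7, 81.3 and 100.5 in RunGH, SedGH, RunSI and SedSI of dataset 2. Run was above Sed in dataset 1 and below Sed in both pairs of dataset 2. Droplets without a nucleus held 440.8 and 372.1 CPM of Cntn3 in RunGH and SedGH of dataset 1, more than layer 6 CT itself, against 113.6 to 158.8 CPM in dataset 2. With that RNA subtracted the difference was -1.95 and called, over 1.5 times as large. The subtraction left 31.4 to 122.5 CPM of Cntn3 in layer 6 CT. The larger value therefore rests on small remainders and on the amount of background assumed.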

How the data were processed

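The deposited matrices hold raw UMI counts per gene and barcode, which the authors made with Cell Ranger 6.0.0 on mm10 with introns included. The study's limits (500 to 4000 genes, at most 1% mitochondrial) were applied together with a UMI minimum for each library, since 103391 barcodes met the limits alone in SedGH of dataset 1. Nuclei were clustered per dataset (scanpy 1.11.5, Leiden, members and related genes left out) and named from marker lists. Doublets were left in. The caller marked 0 of 5826 nuclei in SedGH of dataset 2, where it did not work. UMIs were summed per library and class and tested with edgeR 4.0.16 (TMM, quasi-likelihood, low-count filter, Benjamini-Hochberg at 0.05 over all genes of a contrast). Classes with at least 20 nuclei in all 6 libraries were compared between conditions, and DESeq2 1.42.0 was an alternative. The code was tested on simulated data. The named genes are all members, 21 related genes, and for each member the genes outside both lists with the best Pearson correlation among those with a mean of at least 20 CPM. The members are defined by symbol alone, but this set and the lists were chosen with earlier results of these data known. Total UMIs per library ranged from 19134955 to 188952936.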

Additional observations from a re-analysis of the deposited data

Results flagged for a closer look

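Each value here is a difference between datasets in the Run minus Sed log2 difference (dataset 2 minus dataset 1), tested as an interaction term with edgeR's quasi-likelihood test. Cntn3 differed by -0.65 in pyramidal neurons, -0.49 in layer 5 IT, -0.61 in layer 5 ET and -1.13 in layer 6 CT. Cntn4 differed by -0.46 in pyramidal neurons, -0.72 in layer 6 CT, -0.72 in PV and -0.76 in SST. Cntnap2 differed by -0.48 in pyramidal neurons, -0.48 in layer 2/3, -0.43 in layer 5 IT, -0.54 in layer 5 ET, -0.55 in layer 5 NP and -0.52 in layer 6 IT. Cntnap5a differed by -0.48 in pyramidal neurons, -0.49 in layer 5 IT, -0.74 in layer 5 NP, -0.58 in PV and -0.82 in SST. Cntnap5b differed by -0.39 in pyramidal neurons and -0.62 in layer 5 IT, and Cntn5 by -0.52 in layer 5 ET. Cntn6 differed by 0.89 in layer 5 IT and by -0.83 in layer 6 CT. Cntnap4 differed by 0.54 in pyramidal neurons and by -0.65 in layer 6 IT.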

How the results depend on the processing

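Over 17 class comparisons 128 of 170 member contrasts were called, and 120 to 130 without 1 library. In the main fit each comparison called between 17.6 and 60.1% of all genes. The interneuron comparison kept 9 calls without any 1 library. Dataset 1 alone gave 134 calls and dataset 2 alone 147, both added after the data were seen. The shares of all genes called in these 2 fits are not given here, so that their counts show nothing particular to the members. Of 2152 single member contrasts under alternatives, 2077 kept direction and call, 72 lost the call and 3 reversed: Cntn6 in layer 5 IT against other layers was 0.18 with log-normalized clustering and 0.0365 with the members used in clustering, and Cntnap5b there was 0.0309 in dataset 1 alone. The cause was not tested. Maternal running gave 0 calls, 1 with no low-count filter, 0 to 9 without 1 library (7 without RunGH and 9 without SedGH of dataset 1) and 8 in dataset 2 alone, a fit added after the data were seen. Isolation gave 0 in every fit without 1 library. The interaction gave 26 calls, 17 with at least 1000 genes per nucleus (9 lost in classes that were fitted) and 1 with DESeq2, which also gave 1 in pyramidal neurons. With background RNA subtracted, the median of Cntn6 in layer 5 NP was 669.6 CPM and that of Cntnap5b in layer 5 ET 406.1 CPM. Without thinning, the median PV shares were 76.8% for Cntnap5c and 81.9% for Cntnap4. The comparisons of conditions had no value with the doubled UMI minimum in VIP, NPY/Lamp5 and astrocytes, with 1000 genes per nucleus in VIP and astrocytes, and with log-normalized clustering in layer 5 IT, where a library had under 20 nuclei. With the doubled minimum the other 3 glial classes had no class contrast. No paired analysis was possible because the groups share only replicate number 1. With 1 library per condition and dataset, small differences between conditions could not be detected.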
